A study of Mus musculus with 6 samples.

Results

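The genes described here encode 8 dual-specificity phosphatases (Dusp1, Dusp2, Dusp4, Dusp5, Dusp6, Dusp8, Dusp10 and Dusp14) and 2 Sprouty proteins (Spry2 and Spry4), which restrain mitogen-activated protein (MAP) kinase signalling. They were chosen by name, with earlier results of these data known. Every probe set (a group of short probes for 1 transcript) whose only platform symbol was one of these 10 was taken. This gave 17 of 45037 probe sets, and the 10 genes stand among 18193 genes with such a probe set. The tissue was microdissected cochlear lateral wall of CBA/CaJ mice, the outer wall of the cochlear duct with its ion-pumping stria vascularis and supporting spiral ligament. Samples labelled YoungAdult came from mice of 1 to 3 months and samples labelled OldAdult from mice of 1.5 years, with no treatment or genetic change named for either age, mice of both sexes and 3 arrays per age. Labelled RNA copies made from total RNA were hybridised to 1-colour Affymetrix arrays. Separate animals or pools behind the 3 arrays of each age are not named in the labels, so each p-value reflects only how these arrays varied, and that spread may be technical.

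MAP kinases are switched on by phosphorylation of a threonine and a neighbouring tyrosine, and dual-specificity phosphatases remove both phosphates. Many of these phosphatases are themselves transcribed in response to the kinases they silence, which makes them feedback inhibitors, and they differ in whether they prefer ERK or the stress kinases JNK and p38 and in whether they act in the nucleus or the cytoplasm. Sprouty proteins act further up, between receptor tyrosine kinases and the RAS-ERK cascade. In the mouse inner ear, loss of Dusp1 is known to cause progressive hearing loss and loss of Spry2 to alter the supporting cells of the organ of Corti.

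The promoters of Dusp1, Dusp8 and Dusp5 are shown because they hold motifs bound by stimulus-responsive factors. Promoter sequences from RefSeq (build GRCm38.p6) were matched for 8 of the 10 genes, all except Dusp4 and Spry4, and the 250 bases before the annotated start were searched on both strands. Capitals mark a cAMP response element, TGACGTCA, in Dusp1 and Dusp8 and CArG boxes, the binding motif of serum response factor, in Dusp5. The windows lie at chr17:26508473-26508722 (minus strand), chr7:142095285-142095534 (minus strand) and chr19:53528895-53529144 (plus strand) and end at the base before the start.
Dusp1: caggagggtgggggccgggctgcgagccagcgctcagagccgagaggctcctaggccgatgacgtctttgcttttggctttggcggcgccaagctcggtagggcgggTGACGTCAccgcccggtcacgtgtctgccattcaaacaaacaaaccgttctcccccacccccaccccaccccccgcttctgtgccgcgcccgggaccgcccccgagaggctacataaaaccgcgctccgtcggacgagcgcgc
Dusp8: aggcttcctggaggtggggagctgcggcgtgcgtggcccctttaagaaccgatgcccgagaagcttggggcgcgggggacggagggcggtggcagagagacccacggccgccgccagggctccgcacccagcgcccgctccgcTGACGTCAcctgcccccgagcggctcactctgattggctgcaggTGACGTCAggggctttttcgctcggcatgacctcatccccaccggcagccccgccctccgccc
Dusp5: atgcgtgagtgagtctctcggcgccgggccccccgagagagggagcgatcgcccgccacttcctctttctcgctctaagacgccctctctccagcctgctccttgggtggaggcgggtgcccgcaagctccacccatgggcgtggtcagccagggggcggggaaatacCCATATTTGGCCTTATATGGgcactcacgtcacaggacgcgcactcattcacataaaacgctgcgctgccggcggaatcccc

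The cAMP response element stood in 1.55% of all 32851 promoter windows and in those of Dusp1 and Dusp8 among the 8. Dusp1 held 1 copy, at -143 to -136 from the start, and Dusp8 held 2, at -107 to -100 and -63 to -56. In Dusp1 the element lay between a GC box (GGGCGG) at -150 to -145 and another on the opposite strand at -135 to -130. CArG boxes stood in 1.47% of all windows, and Dusp5 held 2 of them side by side, at -82 to -73 and -72 to -63. The short form TGACG, which is part of the full element, occurred in 17.8% of all windows and in Dusp1, Dusp5 and Dusp8. GC boxes occurred in 32.7% of windows and in 6 of the 8 genes, the CCAAT box in 33.8% and in Dusp6, Dusp8 and Dusp10, and CCGGAA, a strong ETS factor core, in 12.0% and in Dusp14. An AP-1 site (TGAGTCA), the TATA box in the form TATAAA and the full glucocorticoid response element were found in none of the 8 windows and in 4.46%, 12.4% and 0.00913% of all windows. These matches describe letters in a short window and were not tested as working sites.

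All values below are log2 signals, and each difference is old minus young, given ± its standard error from limma, the linear model fitted across all probe sets. A probe set was called when its Benjamini-Hochberg adjusted p over all probe sets was under 0.05. The defining markers of the tissue were bright on all 6 arrays, from 10.78 to 14.45 for strial and ligament genes, except the pigment enzyme gene Tyrp1 at 4.01 to 4.33. Xist, transcribed from the silenced X of females, was at 6.06 on young replicate 2 and at 11.95 to 12.65 on the other 5 arrays. Y-linked Uty was at 8.99 on young replicate 2 and 7.41 to 8.03 elsewhere. Y-linked Eif2s3y was at 10.46 there and 8.97 to 9.71 elsewhere, and Kdm5d at 8.96 and 7.19 to 8.04. On the other 5 arrays Xist and these Y-linked genes were all above 6.28, the median of all values. Whether the arrays differ in their mix of sexes, or hold pools of animals, was not tested. Results that change without young replicate 2 are given both ways. The 3′ control probe sets of Gapdh exceeded the 5′ ones by 1.07 to 1.25 on young arrays and 1.26 to 1.45 on old arrays (exact 2-sided permutation p = 0.1, the smallest that 3 against 3 can give). For Actb the excess was 1.46 to 1.60 and 1.39 to 1.84 (exact 2-sided permutation p = 0.4). Marker genes of marrow myeloid cells and of bone also moved with age, with 6 of 7 and 4 of 7 measured genes lower in old samples. The mean log2 signal over the myeloid list was 7.80 to 8.36 on young and 6.47 to 7.22 on old arrays, and over the bone list 8.72 to 9.10 and 7.08 to 8.01. Of 9 macrophage markers, 2 rose (Cd68 and Lyz2) and 1 fell (Cd14), with list means of 8.59 to 8.73 on young arrays and of 8.87 or higher on old arrays. Whether these markers or the 3′ excess play a part in the feedback genes' values was not tested, and in whole tissue a change in cell numbers and a change in RNA per cell cannot be told apart.

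None of the 17 probe sets passed the test in either direction, and none of the 10 genes did at its brightest probe set. For comparison, 2.84% of all probe sets were called lower and 1.86% higher, and of all genes 2.33% were called lower and 2.45% higher by the brightest probe set. At an unadjusted limma p of 0.05, 5 of the 17 passed, where 19.2% of all probe sets did. At their brightest probe sets the 10 genes had a median difference of -0.21, and 7 of them were below 0. The median over all genes was 0.03, with 42.1% below 0. Over all 17 probe sets of these genes the median was nearer 0, at -0.05, beside 0.01 over all probe sets. The 3 old values lay below the 3 young values for Dusp1, Dusp6 and Spry4 and above them for Dusp4, and the other 13 probe sets overlapped. Over all probe sets, 11.3% had every old value below the young ones and 12.5% had every old value above. The 95% intervals of the 17 differences reached from -0.93 to 0.45. Without young replicate 2 the interval of Dusp1 was -1.07 to -0.31 and that of the second Dusp8 probe set -0.99 to -0.48, so a 2-fold lower signal, -1 on the log2 scale, lay within the first.

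**Figure D1:**
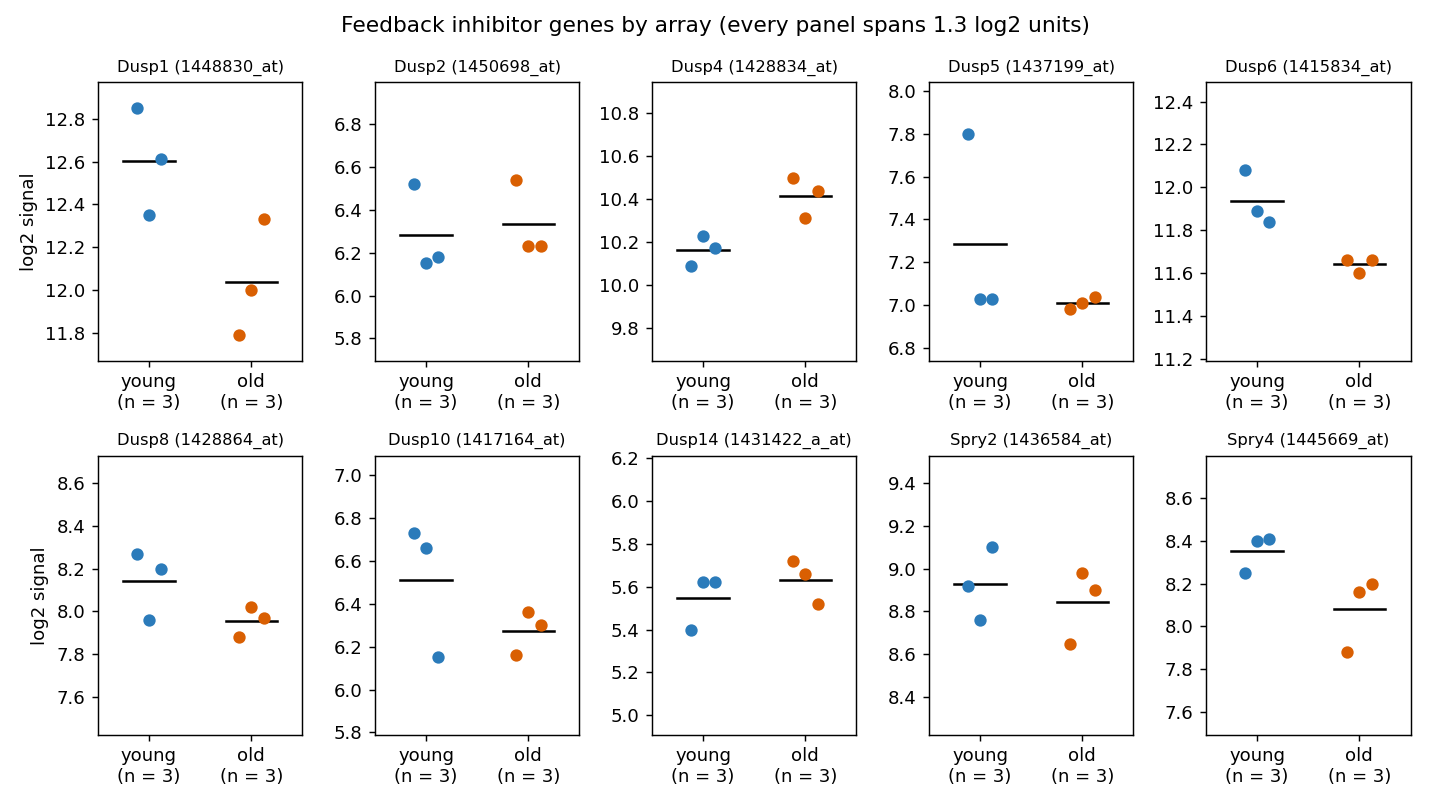
Log2 signal of the brightest probe set of each gene on 3 young (blue) and 3 old (orange) arrays, with a black line at each mean and the same vertical span in each panel. The ages do not overlap for Dusp1, Dusp6 and Spry4, which were lower on old arrays, or for Dusp4, which was higher, and none of the 10 differences passed an adjusted p of 0.05.

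Dusp1 encodes a nuclear phosphatase of p38, JNK and ERK that is made within minutes of a stimulus and is also induced by glucocorticoids. It was at 12.85, 12.35 and 12.61 on the young arrays and at 11.79, 12.00 and 12.33 on the old arrays. The groups did not overlap, but the lowest young array, replicate 2, and the highest old array, replicate 3, lay next to each other. The difference was -0.56 ± 0.16 (limma adjusted p = 0.0934), a 1.48-fold lower signal in old tissue that did not pass. Without young replicate 2 the difference was -0.69 and passed (limma adjusted p = 0.0463). Leaving out any other single array gave adjusted p of 0.0899 to 0.24.

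Dusp8 encodes a phosphatase that prefers JNK and p38, and its promoter is the other with the cAMP response element shown above. Its brightest probe set, 1428864_at, was at 8.27, 7.96 and 8.20 in young and 7.88, 8.02 and 7.97 in old samples, with overlap and a difference of -0.19 ± 0.10 (limma adjusted p = 0.367). The second probe set, 1418714_at, was at 8.36, 7.60 and 8.18 in young and 7.38, 7.64 and 7.58 in old samples, a difference of -0.51 ± 0.18 (limma adjusted p = 0.158). Young replicate 2 was within the range of the old arrays on both. Without that array the second probe set differed by -0.74 and passed (limma adjusted p = 0.0108), while the brightest stood at -0.28 and did not (limma adjusted p = 0.105). These 2 probe sets ran nearly in parallel over the 6 arrays, with a Pearson r of 0.995. The dimmest one, 1447346_s_at, correlated with them at 0.329 and 0.336 and differed by 0.02 between the ages. Dusp1 and the brightest Dusp8 probe set had a Pearson r of 0.872 over the same 6 arrays, which share the age difference.

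Dusp10 encodes another phosphatase with a preference for JNK and p38. Its brighter probe set was at 6.73, 6.66 and 6.15 in young and 6.16, 6.36 and 6.30 in old samples. Young replicates 1 and 2 were above all old arrays and young replicate 3 was below them, and the difference of -0.24 ± 0.15 did not pass (limma adjusted p = 0.452). The dimmer probe set differed by 0.08 and correlated with the first at only 0.106. Its signal, at most 5.20, was below 6.28, the median of all values on the arrays.

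The inducible nuclear phosphatases Dusp2, Dusp4 and Dusp5 did not follow a common pattern. Dusp4, which acts on ERK and the stress kinases, was the one member whose old values all exceeded the young ones, at 10.50, 10.31 and 10.44 against 10.09, 10.23 and 10.17. The difference was 0.25 ± 0.09, a 1.19-fold higher signal that did not pass (limma adjusted p = 0.143). Dusp5, which is selective for ERK, was at 7.80 in young replicate 1 and at 7.03 in the other two young arrays. Its old values were 6.98, 7.01 and 7.04, so that young replicate 1 alone stood apart. The difference was -0.28 ± 0.19 (limma adjusted p = 0.506), and it was -0.02 without young replicate 1. Dusp2, first known from activated blood cells, was near the median signal of the array at 6.52, 6.15 and 6.18 in young and 6.54, 6.23 and 6.23 in old samples. These groups overlapped throughout, and the difference of 0.05 had a 95% interval of -0.24 to 0.34 (limma adjusted p = 0.897).

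Dusp6 encodes the cytoplasmic phosphatase of ERK and is widely used as a readout of fibroblast growth factor and ERK signalling. It was at 12.08, 11.89 and 11.84 in young and 11.66, 11.60 and 11.66 in old samples. The 3 old arrays lay within a narrow band below all young ones. The difference was -0.30 ± 0.09, a 1.23-fold lower signal (limma adjusted p = 0.101). It passed only where the limma variance followed an intensity trend with robust estimation (adjusted p = 0.0314), and the adjusted p was 0.101 to 0.268 on leaving out single arrays. Dusp14, a small phosphatase without the kinase-binding domain of the larger ones, was below the median signal at 5.40, 5.62 and 5.62 in young and 5.72, 5.66 and 5.52 in old samples. Its groups overlapped, with a difference of 0.09 ± 0.10 (limma adjusted p = 0.72).

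Spry4, an inhibitor of receptor-driven RAS-ERK signalling, was measured by 4 probe sets, and its brightest stood apart from the rest. That probe set, 1445669_at, was at 8.25, 8.40 and 8.41 in young and 7.88, 8.16 and 8.20 in old samples, without overlap. The difference was -0.27 ± 0.11, a 1.21-fold lower signal that did not pass (limma adjusted p = 0.195). The other 3 probe sets, with signals from 4.49 to 6.24, all lay below the array median and differed by -0.05 to 0.01. Their correlation with the brightest over 6 arrays was -0.22 to -0.506, and the mean of all 4 differed by -0.09 (limma adjusted p = 0.574). Spry2, whose product acts at the same level, was at 8.92, 8.76 and 9.10 in young and 8.65, 8.98 and 8.90 in old samples on its brighter probe set. These groups overlapped, and the difference of -0.08 ± 0.12 had a 95% interval of -0.35 to 0.19 (limma adjusted p = 0.796). The dimmer probe set, at 5.06 to 5.36, differed by 0.03.

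**Figure D2:**
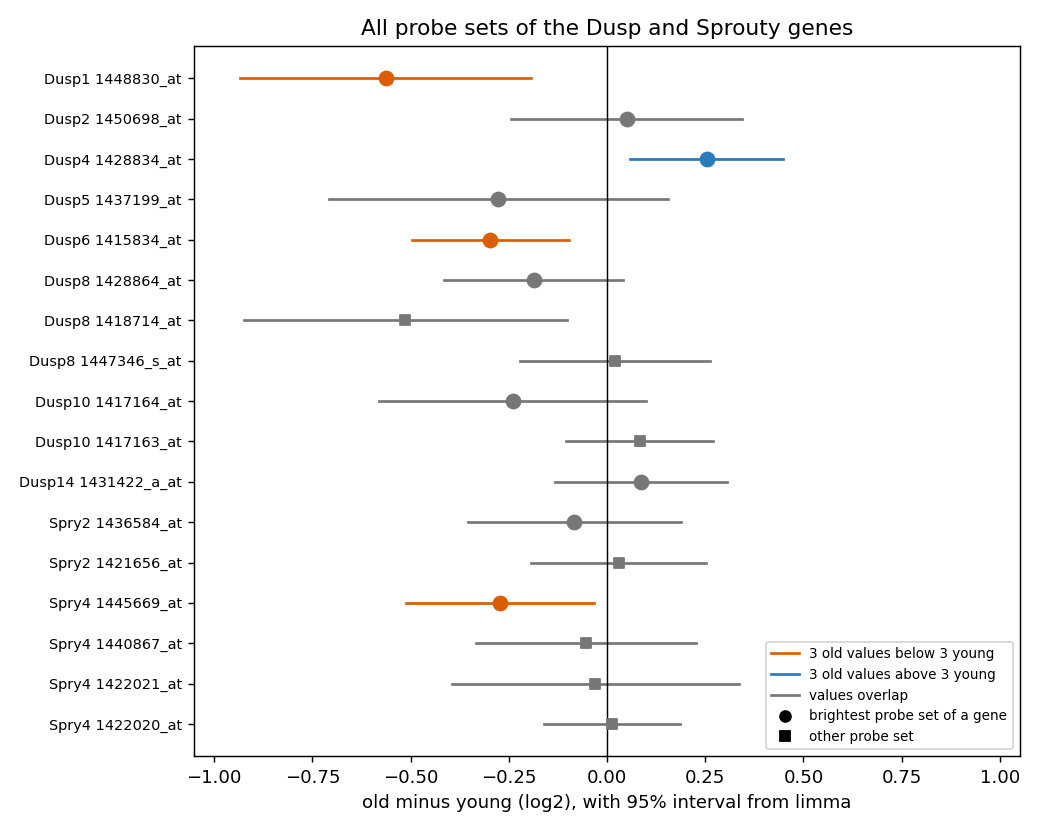
Old minus young difference in log2 signal, with its 95% interval, for each of the 17 probe sets. Round points are the brightest probe set of a gene and squares its other probe sets. Intervals of 5 probe sets exclude 0, those of Dusp1, Dusp4, Dusp6, the second Dusp8 probe set and the brightest Spry4 probe set, and all 17 lie between -0.93 and 0.45.

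Across the 6 arrays the members did not vary as 1 group. Young replicate 1 was the highest young array for 6 of the 10 genes. Young replicate 2 was the lowest for 5, counting Dusp5, where it tied with young replicate 3. Old replicate 1 was the lowest old array for 6. Dusp1 correlated with Dusp6 at 0.848, with Spry4 at 0.733 and with Dusp5 at 0.71, and with Dusp4 at -0.846 and Dusp14 at -0.832 over the 6 arrays, all of which contain the age difference and share their RNA. The rule for genes of like pattern needed called members and so named none. The pattern of Dusp1 alone was examined after its values were seen, among 243 other genes above the median signal with an SD of at least 0.5. The highest Pearson r over 6 arrays were 0.956 for Csrnp1, 0.951 for Pim3, 0.949 for Zfp469, 0.946 for Sik1 and 0.946 for Grasp, followed by Ciart, Nup214 and Ccn2 at 0.942, 0.936 and 0.933. Of these 8 genes, 7 fell in old tissue, with differences of -1.70 to -0.86, and Csrnp1 was at -0.89 (limma adjusted p = 0.0573). Since Dusp1 was lower on every old array and these genes were picked for following it over the same arrays, their direction was set by the choice.

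Some ERK-induced targets held larger differences than any feedback gene. This list also takes in the transcription factor genes Elk1, Elk3, Elk4 and Srf. Of 19 measured targets 4 fell and 0 rose, and 14 differences were below 0. The list median was -0.14, beside -0.21 for the feedback genes. Fos, an AP-1 subunit, was at 10.56, 9.82 and 10.62 in young and 7.43, 7.37 and 7.76 in old samples. Egr1, a zinc finger factor, was at 12.18, 10.84 and 11.89 in young and 9.34, 8.67 and 8.77 in old samples. Neither gene overlapped between the ages, and they fell by 2.81 ± 0.21 and 2.71 ± 0.32 (limma adjusted p = 0.000985 and 0.00457). Zfp36, which drives decay of inflammatory messenger RNAs, fell by 1.19 ± 0.18, and the ETS factor gene Etv4 by 0.51 ± 0.11 (limma adjusted p = 0.0112 and 0.0358). The old values of Etv4, 6.39, 6.21 and 6.26, were near the array median. Its second probe set, with the means of both ages below that median, was at -0.63 and did not pass (limma adjusted p = 0.088). Ier2, another immediate early gene, was at -0.55 and did not pass (limma adjusted p = 0.0562). Ccnd1 went the other way, with every old value above the young ones, at 0.32, and did not pass (limma adjusted p = 0.1). Without young replicate 3 the adjusted p of Zfp36 was 0.0512, and that of Etv4 exceeded 0.05 on leaving out any array except young replicate 2, up to 0.14.

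Subtracting Dusp1 from each of these 4 targets within an array, sets their differences side by side. These 4 were taken because they had been called lower, out of 19 measured, so the values are a description with no test. Fos minus Dusp1 was at -2.29, -2.53 and -1.99 in young and -4.36, -4.63 and -4.57 in old samples, so that the difference of Fos minus Dusp1 between the ages was -2.25. It was -2.15 for Egr1 and -0.62 for Zfp36. For these 3 the old and young values did not overlap. For Etv4 minus Dusp1 the groups overlapped, with a difference of 0.06.

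**Figure D3:**
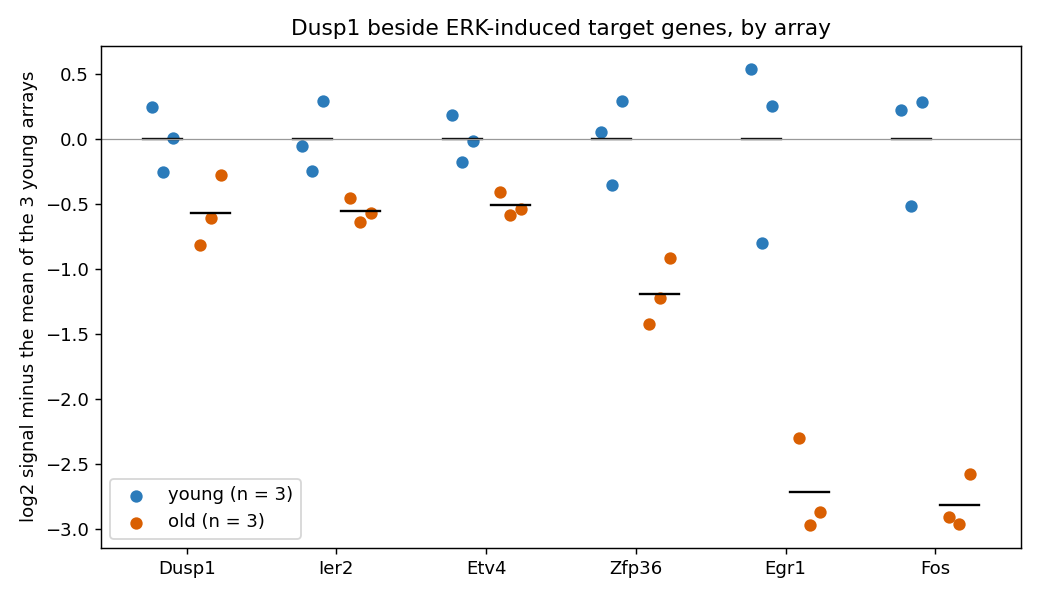
Log2 signal of Dusp1 and 5 ERK-induced targets on each array, relative to the mean of the 3 young arrays, with young arrays in blue, old arrays in orange and a black line at each mean. The old mean lies at -0.56 for Dusp1, -0.55 for Ier2, -0.51 for Etv4, -1.19 for Zfp36, -2.71 for Egr1 and -2.81 for Fos. The targets shown are the 4 that were called lower and Ier2, which did not pass.

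Among the other dual-specificity phosphatases, 1 of 17 fell and 0 rose, with a median of 0.03. This was Dusp15, an atypical small phosphatase, at 8.99, 8.65 and 8.95 in young and 7.87, 7.98 and 7.62 in old samples. It fell by 1.04 ± 0.13 (limma adjusted p = 0.0049), its second probe set fell by 0.54 (limma adjusted p = 0.0231), and it stayed past the threshold on leaving out each array, with adjusted p up to 0.0331. The closest relatives of the members, the ERK phosphatases Dusp7 and Dusp9 and the JNK and p38 phosphatase Dusp16, were at -0.10, 0.01 and 0.07 and did not pass. The signal of Dusp9 was below the array median.

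Of 8 other inhibitors between receptors and ERK, 1 rose and 1 fell, with a median of -0.04. Errfi1, an inhibitor of the epidermal growth factor receptor, was at 12.28, 12.21 and 12.24 in young and 11.49, 11.58 and 11.73 in old samples. It fell by 0.64 ± 0.09 (limma adjusted p = 0.00699) and by 0.54 on its second probe set (limma adjusted p = 0.0125), with adjusted p up to 0.0391 on leaving out single arrays. Il17rd, which encodes the fibroblast growth factor antagonist Sef, was at 8.14 ± 0.12 in young and 8.72 ± 0.13 in old samples (SD, n = 3), without overlap, and rose by 0.58 ± 0.10 (limma adjusted p = 0.0179). Its adjusted p exceeded 0.05 without young replicate 3, old replicate 2 or old replicate 3, up to 0.0862, and its second probe set did not pass, at 0.25. Spry1 and Spry3, the remaining Sprouty genes, were at 0.06 and 0.49, and Spred1, Spred2 and Spred3, relatives of Sprouty, at 0.01, -0.22 and -0.23, and none of these 5 passed. Spry3 was below the array median, with a mean signal of 4.22 in young and 4.71 in old samples.

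Of 20 measured growth factor ligands, which act upstream of the cascades, none passed, with a median of 0.09, and the smallest p was that of betacellulin, Btc, at 0.42 (limma adjusted p = 0.144). Of 19 receptor tyrosine kinases 1 fell, with a median of 0.04. This was Fgfr1, a fibroblast growth factor receptor, by 0.35 ± 0.08 (limma adjusted p = 0.0424). Its other probe sets were at -0.22 and -0.39 and did not pass (limma adjusted p = 0.207 and 0.0521). Of 16 measured genes of the RAS-ERK cascade 1 rose, with a median of -0.02. It was Ksr1, a scaffold of the cascade, by 0.46 ± 0.09 (limma adjusted p = 0.0295), and its mean over 3 probe sets was 0.23 and did not pass (limma adjusted p = 0.171). Of 20 genes of the JNK, p38 and ERK5 cascades 1 rose, with a median of -0.06. It was Mapk12, a p38 kinase, by 0.60 ± 0.13 (limma adjusted p = 0.0417). Its second probe set was at 0.30 and did not pass (limma adjusted p = 0.0971). The adjusted p of Fgfr1, Ksr1 and Mapk12 exceeded 0.05 on leaving out any array except young replicate 2, up to 0.174, 0.135 and 0.145. Over all 7 lists, 7 of 119 measured pathway genes fell and 3 rose, where 2.33% of all genes fell and 2.45% rose. Of these falls 4 were ERK-induced targets. The lists were chosen with earlier results of these data known, so the counts are a description with no test.

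**Figure D4:**
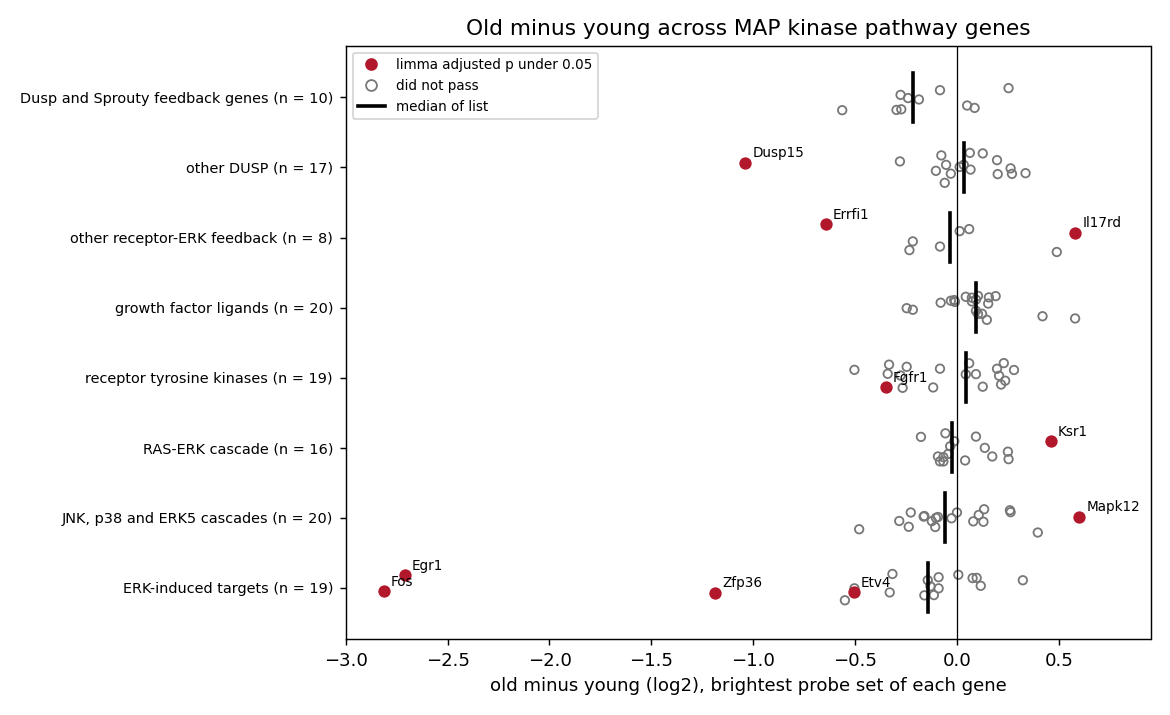
Old minus young difference in log2 signal for the feedback genes and 7 lists of pathway genes, 1 point per gene at its brightest probe set, with filled points for genes past a limma adjusted p of 0.05 and a black bar at the list median. The 10 feedback genes lie between -0.56 and 0.25 with none filled, and Fos and Egr1 lie farthest from 0.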

How the data were processed

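Per the labels' protocols, total RNA was turned into biotin-labelled cRNA by a kit that starts at 3′ ends (Affymetrix 3′ IVT Express). The deposited table holds log2 signals for 45101 probe sets on 6 arrays. Expression Console, RMA and MAS5 appear in the submitters' processing notes, and their versions and which values each made are not given in the sources used here. Array medians were 6.26 to 6.30, so a shift of most genes one way would not be seen. Scanner files were not used here, so signal over background is unknown, and the number of arrays limits precision.

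After removal of 64 controls, old was tested against young with limma 3.58.1 in R 4.3.3, with age as the only term and Benjamini-Hochberg adjustment over 45037 probe sets. The script was checked on simulated data. Platform annotation gave 34945 probe sets 1 symbol, 932 several and 9160 none. All 10 symbols matched RefSeq. For counts of genes, the brightest probe set stood for each gene.

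Members, pathway lists and marker lists were chosen with earlier results of these data known. Named genes were all members and, per pathway list, those called, up to 4 per direction by p, or the smallest p where none was. Pathway genes named outside this rule were Ier2, Ccnd1, Elk1, Elk3, Elk4, Srf, Dusp7, Dusp9, Dusp16, Spry1, Spry3, Spred1, Spred2 and Spred3. Of 132 listed pathway genes 119 were measured, and the others were not analysed here. Alternatives were other normalizations, a filter on dim probe sets, other variance models, array weights, a replicate block, stricter thresholds, averaging probe sets and leaving out each array.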

Additional observations from a re-analysis of the deposited data

How the results depend on the processing

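The count of called feedback probe sets and genes was 0 in the main test and stayed 0 under every alternative except an intensity trend with robust variance, which called 1 probe set and 1 gene (Dusp6), and leaving out single arrays, which gave 0 to 2 probe sets and 0 to 1 genes. The calls came without young replicate 2 alone, for Dusp1 and the second Dusp8 probe set. The number of called probe sets over the whole array, 2119, was 4480 with array weights, 436 at an adjusted p of 0.01, 337 with a 2-fold minimum and 515 (without old replicate 3) to 3393 (without young replicate 2) on leaving out single arrays. With the replicate number as a block it was 1932, with 0 feedback probe sets and 0 feedback genes. Same-numbered arrays deviated together at correlations of 0.137, 0.075 and 0.008, so the numbers are not taken as pairs. In that fit Fgfr1 and Ksr1 had adjusted p of 0.0749 and 0.0559. Differences kept their sign in all settings for 8 of the 10 genes. Dusp2 ranged from -0.05 to 0.17 and Spry2 from -0.17 to 0.01 on leaving out single arrays, with Dusp2 at -0.017, -0.002 and -0.053 and Spry2 at 0.003 and 0.013 where the sign turned. The cause of these changes was not tested.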

Other observations

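Marker genes of other cell types of the inner ear and its surroundings were examined. Endothelial, hair cell, lymphocyte, skeletal muscle and neural lists had 0 called genes of 4, 3, 2, 2 and 2 measured, and the marginal, intermediate, basal, fibrocyte and spindle and root lists had 0 called of 5, 5, 1, 6 and 1. Of 3 erythroid genes, Slc4a1, the anion exchanger of red cells, fell by 1.23 (limma adjusted p = 0.0219). Snap25, a synaptic gene, was at 7.14, 5.11 and 6.28 in young and 4.36, 7.24 and 4.78 in old samples, so single arrays of both ages were high.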
